A study of Mus musculus with 4 samples.

Results

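The genes described here are the core of the miRNA pathway, namely Drosha, Dgcr8, Xpo5 and Dicer1, which make miRNAs, and Ago1, Ago2, Ago3, Tnrc6a, Tnrc6b and Tnrc6c, which silence their targets. They were chosen by name, and a gene was kept if its mean in the deposited table was above 0. All 10 were found, among 17044 genes with a mean above 0 in the table. The RNA came from hair follicle stem cells (HF-SCs), which keep the resting hair follicle able to regrow, sorted from mouse back skin as H2BGFP-high, Sca1-negative cells with high integrin α6 and CD34. Bulk RNA-seq libraries were made from 2 control (Ctrl) samples and 2 miR-205 inducible samples, at postnatal day 44 and 2 d of induction.

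The miR-205 inducible mice carry a pTRE2-miR-205 transgene driven by Krt14-rtTA, so that doxycycline chow turns it on in cells with an active Krt14 promoter, in skin and not in HF-SCs alone. Both groups carried the K14-H2BGFP allele, and the strain is labelled C57BL/6, while the transgene was first injected into FVB mice. The labels call the Ctrl mice untreated and date the chow from day 42, whereas the sort protocol has both groups on doxycycline, so exposure of the Ctrl mice to the drug is uncertain. No label says whether a library came from 1 mouse or several.

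A primary miRNA transcript is cut in the nucleus by the Microprocessor, in which DROSHA is the RNase and DGCR8 the RNA-binding partner. Exportin-5, the product of Xpo5, carries the hairpin out of the nucleus, DICER1 trims it, and 1 strand is loaded into an Argonaute. The Argonaute pairs with the target mRNA through the miRNA seed, and GW182 proteins, encoded by the Tnrc6 genes, bring in the deadenylases that shorten the tail of the mRNA. Removal of this pathway from embryonic skin is known to disturb hair follicles, and miR-205 is an abundant epithelial miRNA.

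The miRNA that the transgene adds is shown first, with its seed (bases 2 to 8) in capitals, as RefSeq lists it for GRCm38.p6 at chr1:193507503-193507524 on the minus strand. A second mature arm comes from the same hairpin.

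mmu-miR-205-5p: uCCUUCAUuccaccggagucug

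mmu-miR-205-3p: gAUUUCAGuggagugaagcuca

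Pairing with the whole 5p seed needs the letters ATGAAGG in the mRNA, and pairing with part of it needs fewer. Among the 10 genes, 4 held at least 1 such match in the longest annotated 3′UTR of a protein-coding transcript (GENCODE vM1, NCBIM37), with 5 matches in all, and the other 6 held none. The windows below are all of these matches, written as mRNA letters with T for U and with the match in capitals. They are the places in these 3′UTRs where the induced miRNA could pair through its whole seed with its own machinery. The shortest annotated 3′UTRs of Ago3 (196 bases) and Tnrc6b (520 bases) hold no such match, whereas those of Dgcr8 and Tnrc6c do. Which 3′UTR is used in these cells was not tested.

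Dgcr8: cggaccgtttttATGAAGGttttcattaat

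Ago3, nearer the stop codon: aagatggcaatgATGAAGGaaattaggact

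Ago3, farther from it: aggacataaaacATGAAGGtaacgaacagc

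Tnrc6b: ggctgcctcgagATGAAGGgtgcttttcag

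Tnrc6c: aatagttctatcATGAAGGgcacttttcag

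The Dgcr8 match lies at chr16:18255314-18255320 on the minus strand of NCBIM37, 295 bases after the stop codon. Those of Ago3 lie at chr4:126021108-126021114 and chr4:126019467-126019473, also on the minus strand. The Tnrc6b match is at chr15:80760794-80760800 and the Tnrc6c match at chr11:117622448-117622454, both on the plus strand. Only the nearer Ago3 match is followed by an A, which makes an 8-base match. From the first base of the match onward, the Tnrc6b and Tnrc6c windows share 16 of 18 bases. These include the match itself, which both windows were chosen to hold. Of the 12 bases before the match they share 1, and this share cannot be set directly against the first. After the match both windows end in cttttcag. Tnrc6b and Tnrc6c are GW182 paralogs, and the Tnrc6c match lies 283 bases and the Tnrc6b match 888 bases after the stop codon.

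Longer 3′UTRs hold more words by length alone. ATGAAGG, searched on the mRNA strand, was in 10.9% of the 15181 longest 3′UTRs of measured genes, whose median length was 1016 bases. The 3′UTR of Ago3 has 12742 bases and that of Tnrc6b 11610. Only 16 and 23 3′UTRs, counting the gene's own, lay within 0.8 to 1.25 times these lengths, and 62.5% and 52.2% of them held the word. For Dgcr8, with 1574 bases, that share was 13.0%, and for Tnrc6c, with 2588 bases, 21.1%. The 3′UTRs of Dicer1 (3851 bases), Ago1 (4491 bases), Ago2 (5283 bases) and Tnrc6a (2337 bases) held no 7-base match, where 27.6%, 31.4%, 35.2% and 18.9% of 3′UTRs of like length did. They held 4, 2, 3 and 2 copies of the 6-base word TGAAGG, which was in 34.4% of all 15181 3′UTRs. Drosha and Xpo5 have only 168 and 28 annotated bases, so that absence there says little. A match is a run of letters and was not measured as a bound site.

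**Figure D1:**
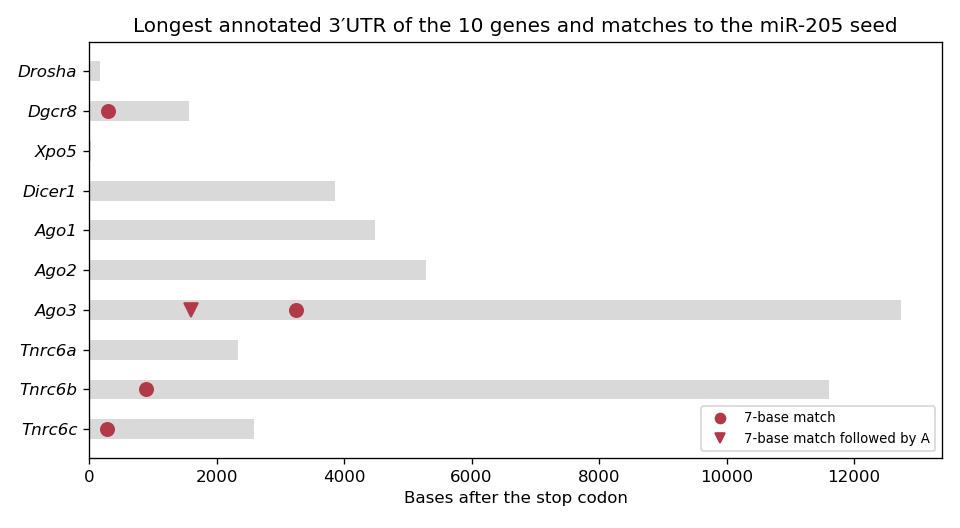
Grey bars give the length in bases of the longest annotated 3′UTR of each gene, and red marks the start of each 7-base match to the miR-205-5p seed, as bases after the stop codon. The marks sit in Dgcr8, Ago3, Tnrc6b and Tnrc6c, and the triangle is the Ago3 match followed by A.

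The levels come from the mean normalized count of the deposited table, which is each gene's read count divided by the size factor of its library and averaged over the 4 libraries of both groups. These means sum to 1.31e+07 over all genes. All genes with a single read, found in the same library, have the same mean, and these steps give relative depths of 1.24, 1.18, 0.966 and 0.716, a 1.73-fold range. Since the means carry 15 digits and the steps are known, the whole reads behind a mean can be solved for, and exactly 1 set of reads, with each library within 0.5 to 2 times the mean, was found for 96.4% of the 7788 genes with a mean of 100 to 2100. This gave the counts of each library for 9 of the 10 genes. The table does not say which library is which sample, so the libraries are named here by their relative depth, no library was placed in a group, and control and induced mice were not compared. A difference between libraries below can therefore hold mouse-to-mouse spread, technical spread and induction together, and p-values are not given.

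Defining markers were read with levels as TPM, the mean normalized count per kilobase of merged exons scaled to the usual fixed sum over all genes with a length. All 8 HF-SC markers were above percentile 95 of measured genes, from Nfatc1 at 189.5 TPM to Krt15 at 16751 TPM. Of these, Cd34 and Itga6 encode antigens of the gate and the Krt14 promoter drives H2BGFP, so their levels do not check the sort, and Krt5 and Krt14 mark all basal epidermis. The markers that the gate did not use and that are not shared in this way are Krt15, Lhx2, Sox9 and Nfatc1. Endothelial Cdh5 and Pecam1 had 1.89 and 2.11 TPM, immune Ptprc and Cd3e 3.76 and 1.66 TPM, and skeletal muscle Myh4 was listed at 0. Within some lists the markers went apart, with fibroblast Col1a1 at 197 and Pdgfra at 1.47 TPM, melanocyte Dct at 50.1 and Mlana at 3.92 TPM, and immune Lyz2 at 85.5 TPM. The suprabasal Krt1 and Krt10 had 208 and 865 TPM. The source of these reads was not tested. Lyz2 ranged from 234 to 769 normalized counts over the libraries and Krt1 from 1564 to 3214, and their part in the values below was not tested. In bulk RNA a lower count cannot tell fewer cells of a type from less RNA per cell. The row of the miR-205 gene itself had a mean of 8.18 and was used for nothing else.

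All 10 genes had reads in the RNA of the sorted cells, as the rule required, and 8 of them lay above the median gene once length was taken into account. Their TPM ran from 4.91 for Dgcr8 to 54.1 for Ago2, against a median of 9.92 over 16240 measured genes with an annotated length. The lowest lay at percentile 39.5 and the highest at percentile 82.5, with a median percentile of 73.3. Dgcr8 and Ago3 were the pair below the median gene, and with coding length only Dgcr8 was. Together the 10 genes summed to 295 TPM, less than several single chaperone or keratin genes in the same RNA.

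**Figure D2:**
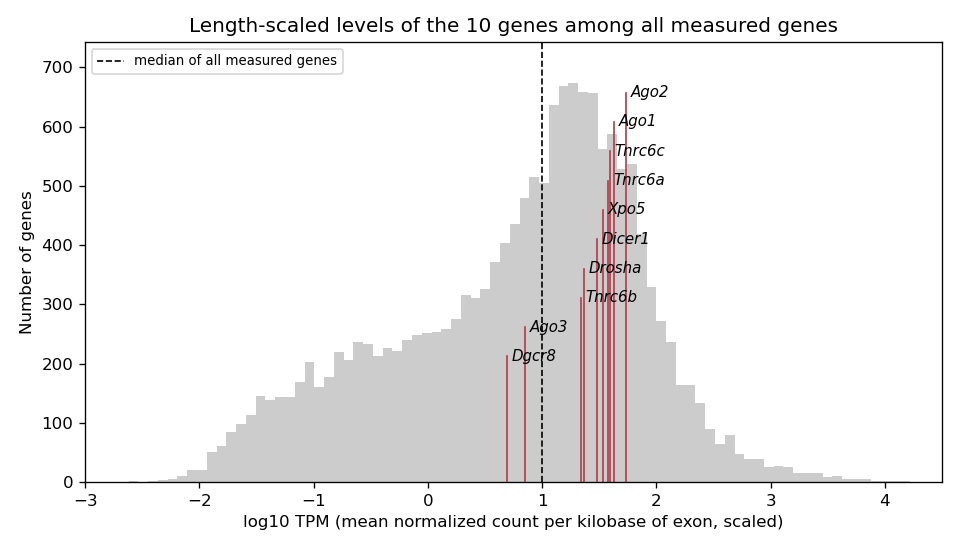
The grey histogram counts measured genes by log10 TPM, and each red line is one of the 10 genes at its own TPM (line heights only keep the names apart). Dgcr8 and Ago3 stand left of the dashed median at 9.92 TPM, and the other 8 stand right of it, up to Ago2 at 54.1 TPM.

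From high to low the TPM order was Ago2, Ago1, Tnrc6c, Tnrc6a, Xpo5, Dicer1, Drosha, Tnrc6b, Ago3 and Dgcr8. Of the neighbours in this order, Ago2 and Ago1, Dicer1 and Drosha, Tnrc6b and Ago3, and Ago3 and Dgcr8 had library ranges that did not overlap. The ranges of Ago1 and Tnrc6c, of Xpo5 and Dicer1, and of Drosha and Tnrc6b overlapped. Within single libraries the first of each pair was higher in 4 of 4, 4 of 4 and 3 of 4. Whether these neighbours differ was not tested. For Tnrc6a no range was available. The gap from Tnrc6b to Ago3 was 3.08-fold. Below Ago2, Ago1 and Tnrc6c, which held the first places under each length, the order depended on the gene model. With the longest transcript Dgcr8 stood above Ago3, at 6.70 against 6.35 TPM. With coding length Ago3 rose to 17.8 TPM, above Xpo5 and Drosha, the gap from Tnrc6b to Ago3 shrank to 1.51-fold, and the widest step was that of 2.17-fold from Drosha to Dgcr8.

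The Microprocessor genes were unequal. Gene spans given here and below are positions of NCBIM37. Drosha (chr15:12754570-12865045, 37 merged exon blocks) had a mean normalized count of 552, from 654, 616, 598 and 385 reads in the libraries of relative depth 1.24, 1.18, 0.966 and 0.716. Scaled by depth these were 529, 523, 619 and 537, so that 1 library, of depth 0.966, stood above the other 3, which lay close together. Dgcr8 (chr16:18254041-18289342) had a mean of 143, with 107, 168, 139 and 159 normalized counts in the same order of libraries. Its deepest library was the lowest of the 4, at 107 with an exact 95% Poisson interval of 89.3 to 127, and its highest was 168 with an interval of 145 to 193. Such intervals cover counting error only.

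Per kilobase of exon, Drosha stood at 23.2 TPM (95% counting interval 22.3 to 24.2) and Dgcr8 at 4.91 TPM (4.52 to 5.32), a ratio of 4.73. Within single libraries this ratio ran from 3.82 to 6.08, so Drosha exceeded Dgcr8 in all 4. The ratio depends on length, and with coding length in place of the merged exons (5934 bases for Drosha and 7286 for Dgcr8) it was 2.17. Of the Dgcr8 exon bases, 825 (11.3%) lie opposite exons of Trmt2a, a tRNA methyltransferase gene on the other strand, and the strand setting of the read counting is not given, so reads there are uncertain.

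Dgcr8 also hosts miRNA hairpins, as do Xpo5 (miR-693) and Tnrc6b (miR-5113), all on the strand of the host. RefSeq places 2 inside the span of Dgcr8 (GRCm38.p6). The Microprocessor is known to cut a hairpin in the Dgcr8 mRNA and so to limit its own partner. The mature arms of the 2 Dgcr8 hairpins are shown with seeds in capitals because reads from a cut transcript would be split there.

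mmu-miR-1306-5p: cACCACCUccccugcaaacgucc

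mmu-miR-1306-3p: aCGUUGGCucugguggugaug

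mmu-miR-3618-5p: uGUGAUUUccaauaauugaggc

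mmu-miR-3618-3p: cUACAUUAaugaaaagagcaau

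These arms lie between 18284248 and 18284623 of chromosome 16 on the minus strand of GRCm38.p6. The span of Dgcr8 above is of NCBIM37, so these positions cannot be set against it. None of them shares its seed with an arm of miR-205. Cutting of the host cannot be read from counts per gene.

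Xpo5 and Dicer1 lay above Drosha. Xpo5 (chr17:46339804-46379248), the export receptor, had a mean normalized count of 503, with 459, 562, 475 and 515 in the libraries from deepest to shallowest. The deepest library was again the lowest and the library of depth 1.18 the highest, as for Dgcr8, and their counting intervals of 422 to 498 and 520.4 to 607 did not overlap. At 33.9 TPM (32.4 to 35.4) Xpo5 was 1.46-fold above Drosha, and 1.23-fold to 1.72-fold within libraries. With the longest transcript the ratio was 1.12 and with coding length 1.04, so the distance between these genes rests on the gene model. From merged exons to coding length, Drosha goes from 5934 to 4119 bases and Xpo5 only from 3709 to 3612. The model gives Xpo5 a 3′UTR of 28 bases.

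Dicer1 (chr12:105925952-105990162), the cytoplasmic RNase, had a mean normalized count of 1214.5. The libraries from deepest to shallowest gave 1242, 1279, 1209 and 1128. They differed 1.13-fold from lowest to highest, and 14.1% of genes with recovered reads, not matched on count, had a smaller ratio. At 30.2 TPM (29.3 to 31.0) Dicer1 exceeded Drosha 1.298-fold, and by 1.15-fold to 1.44-fold within single libraries. With the longest transcript as length the ratio fell to 1.02, whereas with coding length it rose to 1.58.

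Among the Argonautes, Ago2 was the most abundant and Ago3 the least. Ago2, the family member known to slice a fully paired target, had a mean normalized count of 1738, from 2194, 1840, 1763 and 1285 reads. Depth-scaled, these were 1774, 1561, 1824 and 1794 normalized counts, so that the library of depth 1.18 was low and the other 3 lay close together. Ago1 (chr4:126112256-126145878) had a mean of 1409.5, with 1281, 1529, 1347 and 1481 in the same libraries. The library lowest for Ago2 was the highest for Ago1, and the Ago2 to Ago1 ratio per kilobase ran from 1.051 to 1.43 across libraries around a value of 1.27.

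Ago3 (chr4:126008948-126106800) had a mean normalized count of 468, with 502, 474, 435 and 461 in the 4 libraries. Its counting intervals in the highest and lowest library, 463 to 543 and 394 to 478, overlapped. Overlap of intervals is not a test of a difference, and whether the libraries differ for Ago3 was not tested. Its TPM was 7.05 (6.74 to 7.38), and Ago2 was 7.67-fold above it, or 3.72-fold with coding length, because the Ago3 transcript carries the longest 3′UTR of the 10 genes. Ago3, Ago1 and Ago4 lie side by side on chromosome 4 within 201769 bases on the minus strand, with gaps of 5455 and 20906 bases, while Ago2 is on chromosome 15 (72932055 to 73015377).

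With Ago4, the fourth Argonaute, at 12.2 TPM added, the family summed to 116 TPM. Ago2 made up 46.6% of this sum, and 42.01% to 48.9% in single libraries. Ago1 followed with 36.7%, Ago4 with 10.6% and Ago3 with 6.08%. Ago2 and Ago1 kept the first and second place in this sum with the longest transcript and with coding length, but Ago3 and Ago4 changed places with coding length, at 12% and 8.22%.

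Among the GW182 genes, Tnrc6c was even between libraries and Tnrc6b was not. Tnrc6c (chr11:117515603-117624753) had the highest mean normalized count of the 10 genes, 2009, with 1957, 2058, 1982 and 2038 in the libraries from deepest to shallowest. Highest and lowest differed 1.052-fold, with overlapping counting intervals, and 1.052% of genes with recovered reads, not matched on count, had a smaller ratio. Tnrc6b (chr15:80590016-80771516) had a mean of 1484, with 1753, 1305, 1341 and 1536. Here the deepest library was the highest of the 4, opposite to its place for Dgcr8, Xpo5, Ago1 and Tnrc6c, and the range of 1.34-fold was the second widest after the 1.57-fold of Dgcr8.

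Tnrc6a (chr7:130267770-130338802) had a mean normalized count of 1255. Its mean was not solved to exactly 1 set of reads, so no library values are reported for Tnrc6a. Per kilobase of exon, Tnrc6c stood at 39.1 TPM (38.2 to 39.9), Tnrc6a at 38.0 TPM and Tnrc6b at 21.7 TPM (21.2 to 22.3), and the family summed to 98.8 TPM. Tnrc6c exceeded Tnrc6b 1.80-fold, and 1.48-fold to 2.09-fold in single libraries, but 1.29-fold with coding length. The place of Tnrc6a changed with the gene model, from 38.5% of the family with merged exons to 26.6% with coding length, where it was the lowest of the family. All Argonautes together stood 1.17-fold above all GW182 genes, or 1.77-fold with coding length.

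**Figure D3:**
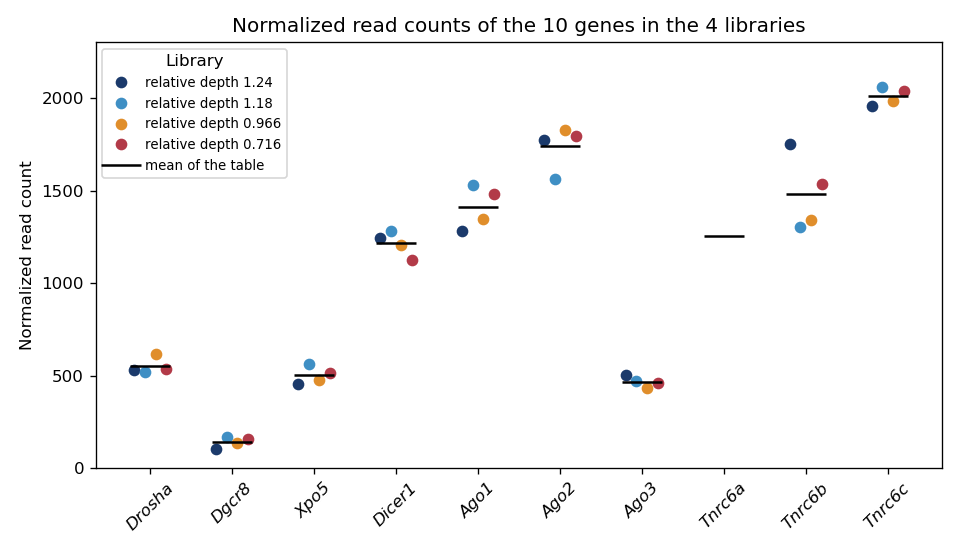
Points are normalized read counts of each gene in the 4 libraries, coloured by relative depth, and black lines are the means of the deposited table; no points are drawn for Tnrc6a. Tnrc6c is tight at 1957 to 2058, whereas Tnrc6b spreads from 1305 to 1753 with the deepest library at the top.

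Over the 9 genes with recovered reads, the median ratio of highest to lowest library was 1.18. Over all 7510 genes with recovered reads it was 1.27. That set was not matched on count and holds no gene beyond 0.5 to 2 times its mean. The intervals of highest and lowest library did not overlap for 7 of the 9, and this held for 60.9% of all genes. Without the library of depth 1.18 it held for 3 of the 9, Dgcr8, Ago1 and Tnrc6b, and for 46.6% of all genes. Counting error depends on count, and neither the ratio nor the overlap was compared with genes of like count. Whether the 9 genes vary less or more than such genes was therefore not tested. The library of depth 1.18 was the highest for 5 of the 9, which were Dgcr8, Xpo5, Dicer1, Ago1 and Tnrc6c, where it was the highest for 24.4% of all genes. It was also the lowest for Drosha, Ago2 and Tnrc6b, 3 of the 9, and for 23.2% of all genes. The deepest library was the lowest for 4 of the 9, namely Dgcr8, Xpo5, Ago1 and Tnrc6c, and the highest for Ago3 and Tnrc6b. Over all genes it was the lowest for 27.9% and the highest for 30.1%. The shallowest library was the highest for none of the 9, against 21.98% of all genes. These counts are a description of 4 libraries, and the 9 genes are not replicates of each other.

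Around the core, the wider pathway was also expressed. All 10 other biogenesis factors were above the median gene, with a median of 85.9 TPM, from Adar, the RNA-editing deaminase, at 10.8 TPM to the RNA helicase Ddx5 at 1358 TPM. The Dicer partners Tarbp2 and Prkra were at the low end, at 12.2 and 26.4 TPM. The deadenylation, decapping and decay list had 21 of 23 genes above the median gene and a median of 40.0 TPM. Its scaffold Cnot1 had 73.7 TPM, the helicase Ddx6 139 TPM, the lowest member Dcp1b 6.15 TPM, and the poly(A)-binding protein gene Pabpc1 560.0 TPM.

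The 5 chaperone genes that load Argonautes were all high, from Fkbp4 at 141 TPM to Hspa8 at 3115 TPM. Of the 9 genes for tailing and turnover, 7 were above the median gene, led by Zswim8, a ubiquitin ligase subunit that directs the decay of Argonautes on certain targets, at 86.7 TPM. The let-7 blockers Lin28a and Lin28b were nearly absent, with Lin28a listed at 0 and Lin28b at a mean normalized count of 0.212, which is 1 read in 1 library. Of 8 piRNA pathway genes, 4 had a mean above 0 and none of these passed the median gene.

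**Figure D4:**
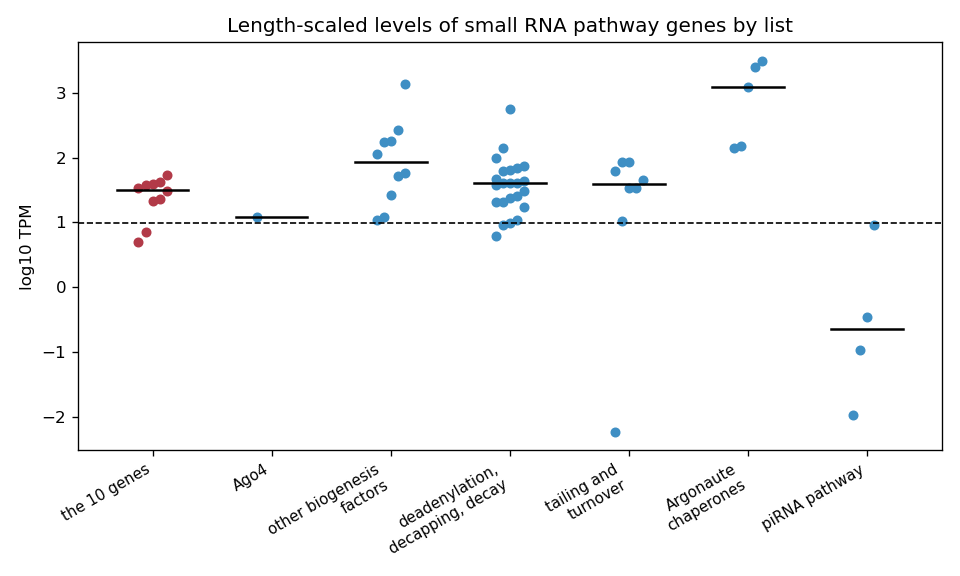
Each point is a gene at its log10 TPM, grouped by list, with a bar at the median of each list and a dashed line at the median of all measured genes (9.92 TPM); genes at 0 are not drawn. The red points of the 10 genes lie between 4.91 and 54.1 TPM, below the chaperones and above the piRNA genes except Piwil2 at 9.15 TPM, which with merged exons stands above Dgcr8 and Ago3.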

How the data were processed

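Total RNA of sorted HF-SCs was sequenced as 150-nt paired reads. Per the submitters' processing notes and methods, reads were aligned with HISAT2 2.1.0 to mm10 (the methods write NCBI37/mm10, which are different builds), converted with SAMtools 1.3.1, counted with HTSeq and compared with DESeq2 by the authors. Annotation, strand setting and DESeq2 version: not given in the sources used here. The mean normalized count is a signal that the authors obtained by dividing counts by size factors and averaging all 4 libraries. The other columns hold the authors' own comparison (log2 fold change, its standard error, Wald statistic, p-value and adjusted p) and were not used. The table has 0 columns with values of single samples.

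Reads per library were solved from the mean as whole numbers by lattice reduction, with each library held within 0.5 to 2 times the mean, and only unique solutions were kept. The median ratio of these reads gave the relative depths back within 0.985%. The solver takes these depths as input, so this is no check of the reads. On simulated libraries with known reads, built around the same means, exactly 1 solution was found for 96.8% of 7788 genes. Of these 7542 solutions, 0 were wrong. All TPM values were computed here from the means and from merged exon lengths of GENCODE vM1 (NCBIM37), to which 16240 of 17044 genes (95.3%) were matched by symbol or RefSeq synonym. Coding lengths were also taken from GENCODE vM1, in place of the RefSeq proteins first planned. The planned count test between groups was not run, because no library could be assigned to a sample. The rule named all 10 members, fixed genes of the lists, and the highest and lowest of each list; Piwil2 is the highest of its list. Other genes were named after their values were seen. Members and lists were chosen with earlier results of these data known. Gene and miRNA sequences are from GENCODE vM1 transcripts and RefSeq GRCm38.p6. Tools were scipy 1.17.1, pandas 2.3.3, numpy 2.4.6, sympy 1.14.0 and matplotlib 3.10.9 under Python 3.11.15.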

Additional observations from a re-analysis of the deposited data

How the results depend on the processing

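The number of genes above the median level stayed at 8 with the longest transcript and with genes of a mean above 10 as reference, and was 9 with coding length. The share of Ago2 in the Argonaute sum was 46.6% with merged exons, 43.8% with the longest transcript, 44.6% with coding length and 43.6% with plain counts. That of Tnrc6a in the Tnrc6 sum was 38.5%, and fell to 26.6% with coding length and 26.4% with plain counts. The number of genes with a miR-205 match was 4 with 7 bases, 1 with 8 bases, 8 with 6 bases and 2 in the shortest 3′UTR, as fewer letters or longer sequence give more matches by construction. All 50 recomputed percentiles and TPM of single genes moved with the reference set or the length, and percentiles of the mean went from 52.9 to 93.3 down to 22.4 to 88.9 among only the genes whose mean exceeded 50. Relative depths solved from recovered reads, a setting added after the data were seen, stayed within 0.985%. The solver took the relative depths as input, so results with these depths are no separate check.

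No paired analysis was possible because the table gives no library a sample or replicate number. From the recovered reads, leaving out each library in turn, a setting added after the data were seen, gave an Ago2 share of 45.9% to 48.2% and 3 to 6 genes, of 7 with all libraries, whose highest and lowest library did not overlap; depths from recovered reads left 7. Levels of Tnrc6a could not be recomputed so. Count tests were not run because no library has a group, and lengths of a second annotation were not run because the other gene table used here gives spans, not exons. Depth limits Dgcr8 most, with 578 reads in all 4 libraries.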

Other observations

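Among the small RNA genes outside the miRNA pathway, Piwil2, a PIWI protein gene best known from the germline, had a mean normalized count of 180.0 and 9.15 TPM, at percentile 48.7. Its libraries ranged from 128 to 221, and no annotated exon of another gene overlaps its exons. Piwil1, Piwil4, Mov10l1 and Mael were listed at 0, Tdrd1 had a mean of 7.46, Ddx4 of 1.23 and Tdrd9 of 0.202. Per kilobase of merged exons Piwil2 was above Ago3 (7.05 TPM) and Dgcr8 (4.91 TPM), whereas with coding length it had 6.08 TPM, against 17.8 TPM for Ago3 and 6.07 TPM for Dgcr8.

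Hnrnpa1, a splicing factor that binds some primary miRNAs, ranged from 146 to 339 normalized counts over the libraries, wider than any of the 9 genes above. Its many processed copies can share reads with it, so the count is uncertain.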
